A study of Mus musculus with 1505 samples.

Results

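Chandelier cells of the mouse primary motor cortex, which the study mapped to the t-type Pvalb Vipr2_2, were compared with all other Pvalb cells among the neurons recorded in 1 calendar year, the one with the most cells of the series. The t-type is a transcriptomic cell type that the study assigned to each neuron from its own RNA. The comparison held 17 chandelier cells from 7 recording days and 117 other Pvalb cells from 53 recording days, out of 789 cells of that year and 1505 cells in the series. The other Pvalb cells belonged to 8 t-types: Calb1_1 with 9 cells, Calb1_2 with 19, Egfem1 with 11, Gabrg1 with 6, Gpr149 with 16, Il1rapl2 with 22, Kank4 with 17 and Reln with 17.

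Each cell was a neuron in an acute slice of adult mouse motor cortex. It was patch-clamped at room temperature, its contents were drawn into the pipette, and its RNA was read by Smart-seq2, which is Patch-seq. Cells came from wild-type C57Bl/6 mice and from lines in which a Cre driver switches on the tdTomato reporter Ai9, among them Pvalb-Cre/Ai9 and Vipr2-Cre/Ai9. The labels tie no cell to an animal, a sex, an age or a driver line, so recording day, line and t-type cannot be told apart beyond the 2 recording days that held both groups. Because no animal is named, each group is 1 sample. No test was made, and the intervals below are exact 95% intervals. Those of summed levels cover the counting error of reads only, and Smart-seq2 reads carry no molecular identifiers. Those of shares of cells take each cell as an independent draw, which cells of the same recording day need not be. Neither covers the spread between animals.

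Chandelier cells are GABAergic interneurons that arise in the medial ganglionic eminence under the transcription factor Nkx2-1. Their axon ends in vertical rows of boutons that contact the axon initial segment of pyramidal cells, the site at which action potentials start. Basket cells, which make up most other Pvalb interneurons, contact the soma and proximal dendrites and fire at high rates through fast potassium channels.

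Exonic counts per chandelier cell ran from 416286 to 2574889, and those of the other Pvalb cells from 126809 to 13543800. After each cell was thinned to 200000 exonic counts, a median of 5896 genes was detected in 17 chandelier cells and of 6342 in 116 other cells. The median share of intronic reads was 31.8% in chandelier cells and 42.5% in the others, and the median share of mitochondrial reads 1.74% and 1.04%. The chandelier cells therefore held fewer reads, a smaller intronic share and a larger mitochondrial share at the median, with overlapping ranges. The part of these differences in the results below was not tested.

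All 5 chandelier marker genes had higher summed levels in chandelier cells, and the promoters of 3 of them are shown first. Each runs from 250 bases before to 50 bases after the annotated start, from RefSeq on GRCm38.p6, and capitals mark the core NKX2-1 motif CAAGTG or its reverse complement CACTTG, which are also a form of the E-box CANNTG. The Vipr2 promoter lies at chr12:116077476-116077775 on the plus strand, the Kit promoter at chr5:75574737-75575036 on the plus strand and the Nkx2-1 promoter at chr12:56536859-56537158 on the minus strand.
Vipr2: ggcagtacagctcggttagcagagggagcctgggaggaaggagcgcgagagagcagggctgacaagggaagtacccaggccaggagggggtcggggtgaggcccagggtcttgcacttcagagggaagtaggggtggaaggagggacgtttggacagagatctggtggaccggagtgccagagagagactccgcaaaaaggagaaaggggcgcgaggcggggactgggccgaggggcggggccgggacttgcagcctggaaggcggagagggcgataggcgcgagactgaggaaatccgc
Kit: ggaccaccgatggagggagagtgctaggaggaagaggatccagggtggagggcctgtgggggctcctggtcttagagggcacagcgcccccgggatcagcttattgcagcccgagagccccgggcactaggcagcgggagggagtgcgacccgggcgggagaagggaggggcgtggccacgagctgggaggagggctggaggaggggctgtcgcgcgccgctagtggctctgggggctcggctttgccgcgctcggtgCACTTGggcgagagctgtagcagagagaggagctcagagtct
Nkx2-1: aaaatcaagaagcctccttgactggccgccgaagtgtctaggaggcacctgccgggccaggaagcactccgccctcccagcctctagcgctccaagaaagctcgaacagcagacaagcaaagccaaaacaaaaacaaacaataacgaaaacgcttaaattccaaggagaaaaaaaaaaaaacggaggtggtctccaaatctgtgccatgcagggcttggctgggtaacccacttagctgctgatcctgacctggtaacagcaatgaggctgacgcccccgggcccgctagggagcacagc
The motif occurred once in the Kit window and in neither of the other windows shown, and 13.6% of all 32851 promoters of the same length held it. The windows of the markers Unc5b and Pthlh, not shown, did not hold it.

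The label was checked first against 5 chandelier markers. Kit, the receptor tyrosine kinase for stem cell factor, was at 0 CPM in the lowest chandelier cell, 174 CPM at the median and 707 CPM in the highest. In the other Pvalb cells its median was 0 CPM and its highest value 23.9 CPM, so no other Pvalb cell reached the chandelier median, although 3 chandelier cells held no Kit read. Over summed counts Kit stood at 206 CPM (interval 199.7 to 212) against 0.174 CPM (0.125 to 0.236), a log2 fold of 7.46.

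Pthlh, which encodes parathyroid hormone-related protein, was present in 16 of 17 thinned chandelier cells (94.1%, 71.3 to 99.9) and in 17 of 116 other Pvalb cells (14.7%, 8.78 to 22.4). Its chandelier cells ran from 0 through a median of 244 CPM to 1417 CPM, and those of the other t-types from 0 through a median of 0 to 159 CPM. In summed counts this was 357 CPM against 9.92 CPM, a log2 fold of 5.03. Pthlh was thus the marker found in the most chandelier cells, and no other Pvalb cell reached the chandelier median.

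Vipr2, the receptor for vasoactive intestinal peptide and PACAP that gives the t-type its name, was found in 8 of 17 thinned chandelier cells (47.1%, 23 to 72.2) and in 2 of 116 other cells (1.72%, 0.209 to 6.09). Chandelier cells ran from 0 through 2.88 to 96.8 CPM and the other cells from 0 through 0 to 59.6 CPM, so the groups overlapped. The sums were 35.1 CPM and 0.767 CPM, a log2 fold of 4.35. Unc5b, a netrin receptor, was found in 7 of 17 chandelier cells (41.2%) and 5 of 116 others (4.31%), with sums of 43.6 and 1.12 CPM and a log2 fold of 4.39.

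Nkx2-1, the lineage factor of the medial ganglionic eminence, was read in 4 of 17 chandelier cells (23.5%, 6.81 to 49.9) and in 0 of 116 other cells, which allows a share of up to 3.13%. Its highest chandelier cell held 192 CPM, and the median was 0 CPM. With 739 reads against 0, the summed level of 33.3 CPM was at least 2620-fold higher, taking 3 reads over the other group as the floor. This bound counts reads and not cells, and the reads were uneven among the 4 cells. Cells numbered 17 and 1 held 192 and 142 CPM, and cells 5 and 14 held 23.9 and 19.9 CPM. All reads came from 4 of the 7 chandelier days.

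Counted per cell, 2 chandelier cells had a read of all 5 markers, 5 had 4, 4 had 3, 3 had 2 and 3 had 1. Among the other Pvalb cells 80 had none, 32 had 1 and 5 had 2. The chandelier cell with the least marker RNA held a single Kit read, at 1.59 CPM, and no read of Pthlh or Pvalb. These markers also shaped the t-types themselves, so their levels describe the label and do not test it.

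**Figure D1:**
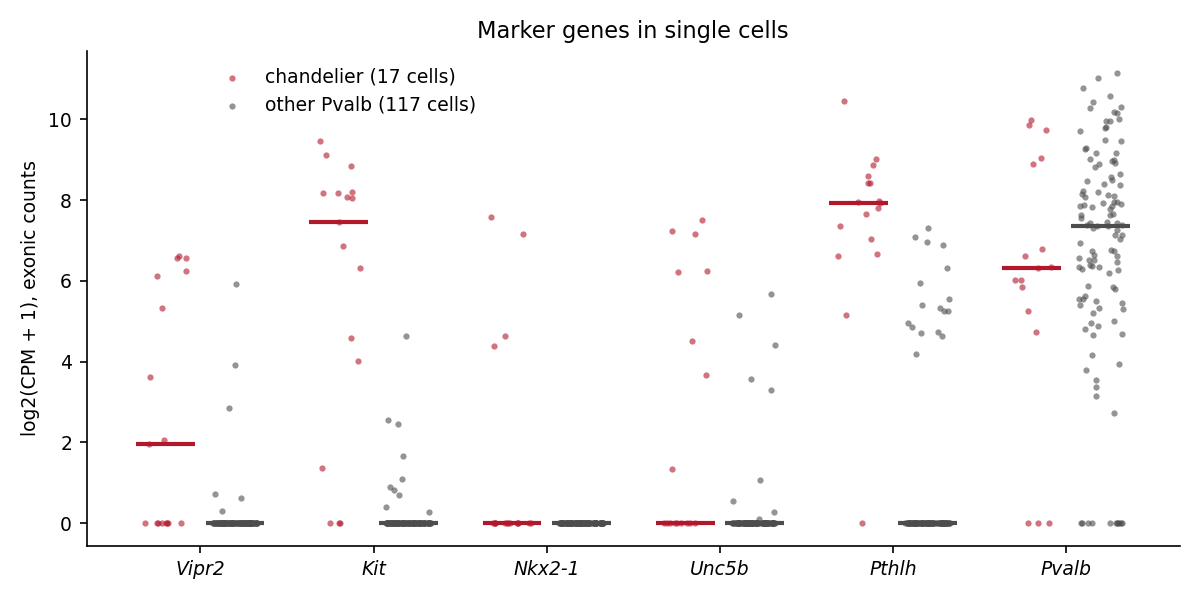
Level of 5 chandelier markers and Pvalb in single cells, as log2(CPM + 1) of exonic counts, with 17 chandelier cells in red, 117 other Pvalb cells in grey and a bar at each median. Kit and Pthlh separated most cells, Nkx2-1 was at 0 in all other Pvalb cells, and Pvalb overlapped.

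The genes that mark Pvalb and GABAergic neurons in general gave a mixed picture. Pvalb itself, the calcium-binding protein parvalbumin, had a median of 79.2 CPM and a range of 0 to 1016 CPM in chandelier cells, against a median of 164 CPM and a range of 0 to 2265 CPM in the others, with a log2 fold of -0.32 in sums. Pvalb was read in 14 of 17 chandelier cells, and the groups overlapped over nearly their whole range. Tac1, the precursor of substance P, was lower: its median was 0 CPM in chandelier cells and 592 CPM in the others, and its log2 fold -4.21. Erbb4, the neuregulin receptor found in these interneurons, differed by 0.27 and the transcription factor Lhx6 by -0.19. Gad1 and Gad2, which make GABA, had log2 folds of -0.89 and -1.18, and Slc32a1, which loads it into vesicles, had one of 1.23. On the only 2 recording days with both groups Gad1 and Gad2 stood at 0.14 and 2.17, the opposite sign.

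Across the transcriptome, 11950 genes had a mean of at least 5 CPM over both groups. In summed counts 1547 of them (12.9%) were 2-fold or more higher in chandelier cells and 2341 (19.6%) 2-fold or more lower, with a median log2 fold of -0.10 over all genes. When the mean over cells and the mean over recording days also had to pass 2-fold, 1045 genes (8.74%) were higher and 1789 (15%) lower. Counts of this size were not particular to the chandelier cells. Each other Pvalb t-type set against the rest of the Pvalb cells gave between 943 and 2030 genes higher and between 1207 and 3612 lower. At 8-fold or more, 212 genes were higher in the chandelier cells, against 48 to 296 in the other t-types, of which Gabrg1 with its 6 cells gave the 296.

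The 15 with the largest folds under all 3 weightings, from those with a summed level of 50 CPM or more that were read in 50% or more of the thinned chandelier cells, come next, of which 14 are described. Kit and Pthlh were among them. A830036E02Rik, an antisense RNA on chromosome 11, had a median of 89.9 CPM in chandelier cells, ran from 0 to 472 CPM, and had a median of 0 and a maximum of 53.1 CPM in the other cells. Its sums of 142 and 1.31 CPM gave a log2 fold of 5.95. No other Pvalb cell reached its chandelier median. The libraries do not mark strand, so its reads cannot be told from those of the gene on the opposite strand, Krt12.

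Several of the genes higher in chandelier cells encode proteins of the cell surface. Cdh6, a cadherin that joins neighbouring cells, was read in 12 of 17 chandelier cells and 8 of 116 others, with sums of 134 and 2.93 CPM and a log2 fold of 5.10. Pcdh8, a protocadherin, was read in 14 and 15 cells, with 138 and 10.5 CPM and a log2 fold of 3.59. Cntn3, a contactin, and Cntnap5b, a contactin-associated protein, had log2 folds of 3.49 and 3.39. These 4 genes were less exclusive than Kit: Cntn3 was also read in 21 of 116 other cells and Cntnap5b in 47.

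Cacna2d3, an auxiliary subunit of voltage-gated calcium channels, had sums of 162 and 6.76 CPM and a log2 fold of 4.39, and among the other t-types it was highest in Calb1_1, at 65.6 CPM.

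Cpne5, a copine that binds membranes in the presence of calcium, was read in 14 of 17 chandelier cells and 9 of 116 others (log2 fold 5.64). Hs3st2, which adds sulfate groups to heparan sulfate, was read in 11 and 8 cells (log2 fold 5.39). Pxdc1 had a log2 fold of 5.92 and Tmem255a one of 5.46, each from 9 of 17 chandelier cells. Rnf182, a ubiquitin ligase, stood at 4.24, and Patj, a scaffold protein of cell polarity, at 3.65.

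The 15 genes lower in chandelier cells by the same rule included genes without a chandelier read. Ndst3, which like Hs3st2 modifies heparan sulfate, had 0 reads in the 17 chandelier cells and 32364 in the others, where the median cell held 9.59 CPM, the highest 1101 CPM and 54.3% of thinned cells a read. Taking 3 reads as the floor, its summed level was at least 1014-fold lower. This bound, like the other bounds below, counts reads and not cells, and 0 of 17 cells allows a share of up to 19.5%. Mybpc1, a myosin-binding protein, was at least 639-fold lower and Myo5b, an unconventional myosin of vesicle transport, at least 556-fold lower, both with 0 reads in chandelier cells. Ndst3 and Mybpc1 were not read in every other Pvalb t-type either, as each was at 0 CPM in the lowest of them. Myo5b was lowest in Gabrg1, at 1.90 CPM.

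Kcnip4, which binds A-type potassium channels, had a median of 0 CPM and a highest value of 52.7 CPM in chandelier cells. In the other cells its median was 367 CPM and its highest value 3485 CPM. The sums of 3.60 and 555 CPM gave a log2 fold of -6.92, and the lowest of the other t-types, Gpr149, still held 102 CPM. Gm43670, an unconfirmed transcript inside Kcnip4 on the opposite strand at chr5:49425017-49426783 of GRCm38, had 0 reads in chandelier cells, and without strand its reads cannot be told from those of Kcnip4.

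Grik1, a kainate receptor subunit, had sums of 1.22 and 272 CPM, a log2 fold of -6.94, and Grin2a, an NMDA receptor subunit, 1.17 and 128 CPM, a log2 fold of -5.89. No chandelier cell held more than 6.60 CPM of Grik1 or 6.09 CPM of Grin2a. Adamts1, a secreted metalloprotease, stood at -7.16. The neuropeptide gene Npy (-5.87) and Crhbp (-6.76), whose product binds corticotropin-releasing hormone, were also lower. Camk1g, a calcium-dependent kinase, had 1 chandelier read, at 0.0451 CPM (0.00114 to 0.251), against 81.4 CPM.

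A further 4 genes act in signalling at the membrane or in secretion. Rgs4, which shortens G-protein signals, had a log2 fold of -4.77, Rasgrf2, a Ras exchange factor, -5.69, Ephb6, an ephrin receptor, -5.96, and Rbp4, a retinol carrier, -5.82. The chandelier median was 0 CPM for all 4. Npy was uneven among the other t-types, from 0.735 CPM in Reln to 860 CPM in Gabrg1.

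**Figure D2:**
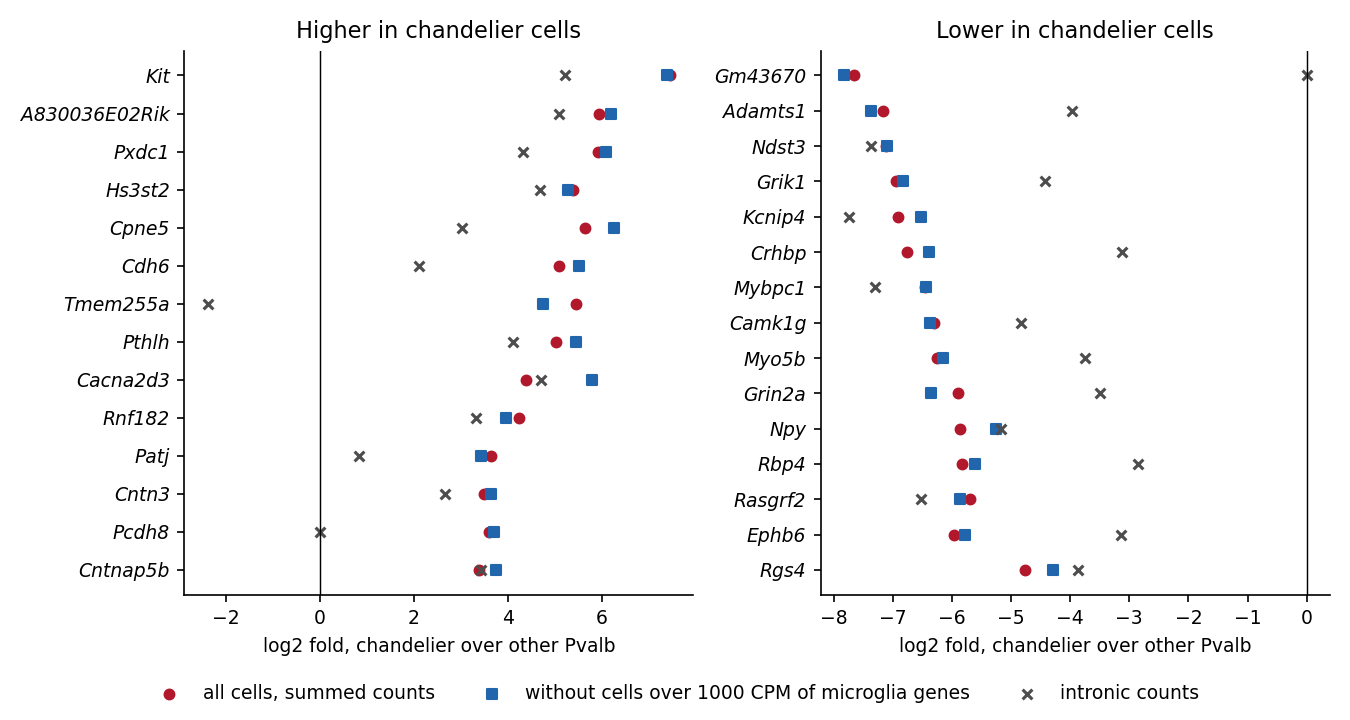
Log2 fold of summed counts, chandelier over other Pvalb, for 14 of the 15 genes higher and for the 15 lower, with all cells (red), without cells over 1000 CPM of microglia genes (blue) and in intronic counts (crosses). Red and blue marks lay on the same side of 0 for every gene shown, farthest apart for Cacna2d3, and Tmem255a had the opposite sign in introns.

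Lists of genes by function were then described by their counts and medians, to be read against 12.9% of all genes higher, 19.6% lower and a median of -0.10. GABA-A receptor subunits were mostly lower: 0 of 11 considered were 2-fold higher and 7 lower, with a median of -1.29. Gabra3 was read in 1 of 17 chandelier cells and 50 of 116 others and had a log2 fold of -3.65. Gabra2 stood at -2.78 and Gabra4 at -2.71, while Gabrd differed by -0.40.

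Metabotropic glutamate receptors followed, with 4 of 5 lower and a median of -3.63, or of -4.55 with the genes without chandelier reads at their bound. Grm8 had 0 chandelier reads and was at least 84.4-fold lower. Grm5, which couples to calcium release, had sums of 77.3 and 359 CPM (log2 fold -2.20). Of the 12 ionotropic glutamate receptor subunits, 1 was higher and 2 lower, with a median of -0.59. The 2 lower ones were Grik1 and Grin2a and the higher one was Grin3a (2.38), while the AMPA receptor subunits Gria1 to Gria4 lay between -0.65 and -0.19.

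Potassium channels of fast-spiking cells were lower on balance, with 7 of 11 lower, 1 higher and a median of -1.55. Kcnc2, a channel that repolarises fast spikes, had sums of 182 and 774 CPM (log2 fold -2.08), while its relative Kcnc1 differed by 0.03. Kcna1 and Kcna2, channels of the axon, stood at -2.02 and -2.12, and the subunit Kcnab3 at -1.72. The higher gene was Kcna6 (1.14), which was not higher by cell counts, at 52.9% of chandelier cells and 57.8% of others. Among 19 other potassium channel genes 2 were higher, Kcnd3 (3.40) and Kcnt2 (2.91), and 6 lower, with Kcnip4 and Kcnma1 (-2.09) at the low end.

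Of 8 sodium channel genes 0 were higher and 4 lower, with a median of -0.61. The pore-forming subunit Scn1a differed by -0.12 and Scn8a by -1.11, and the accessory subunit Scn4b had sums of 1.04 and 50.1 CPM (log2 fold -4.65). Of 4 genes of the HCN family and its partner Pex5l, 3 were lower, with a median of -1.74 and Pex5l at -3.97. Calcium channels went both ways, with 3 of 14 higher and 4 lower. The higher ones were Cacna2d3, the T-type channel Cacna1g (1.83) and Cacng3 (2.19), which accompanies AMPA receptors.

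Neuropeptides differed strongly in both directions, with 3 of 9 considered higher, 6 lower and a median of -3.41. The lower ones were Tac1, Npy, Crhbp, Sst, Penk and Cort. Besides Pthlh, Cck was higher, with a chandelier sum of 343 CPM against 82.7 CPM (log2 fold 2.04) and a read in all 17 thinned chandelier cells against 62.1% of the others. Nmb, at 1.04, was the last. Cck, Nmb and, in the other lists, Gabrd, Kcnc1, Scn1a, Slit2 and Epha5 were singled out after their values were seen.

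Receptors for neuropeptides were higher on balance, with 5 of 7 higher, 1 lower and a median of 2.58. Sstr2, a somatostatin receptor, had sums of 146 and 0.576 CPM (log2 fold 6.54), in 41.2% of chandelier cells and 1.72% of the others. Tacr1, the substance P receptor, stood at 3.36, Vipr2 at 4.35 and Sstr4 at 2.58, and Cckbr at -2.72.

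Genes of axon guidance were lower more often than higher, at 11 of 25 against 3, with a median of -0.83. The repellent Slit3 and the ephrin Efna5 each had 1 chandelier read, at 0.0451 CPM (0.00114 to 0.251), against 51.1 and 36.9 CPM, and Slit2 had sums of 9.82 and 276 CPM (log2 fold -4.68). Sema3e, a semaphorin, stood at -5.39, and the 3 higher ones were Unc5b, its partner receptor Dcc (1.40) and Epha5 (1.27). Of 17 cadherins and protocadherins 4 were higher and 7 lower, which included Cdh6 and Pcdh8 in one direction and Cdh13 (-5.97) and Cdh8 (-5.34) in the other. Pcdh20 (3.92) rested on 1 of 17 thinned chandelier cells.

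Genes known from the axo-axonic synapse and the axon initial segment showed no common direction. Of 9 considered, 1 was higher, Fgf13 (sums 228 and 34.9 CPM, log2 fold 2.67), and 2 lower, the adhesion protein Cntnap4 (-2.03) and the spectrin Sptbn4 (-1.39). Erbb4, L1cam, Nrcam and Nfasc all lay between -0.50 and 0.27. Of 13 transcription factors of the lineage, Nkx2-1 and Mef2c (1.18) were higher, and Satb1, a chromatin organiser of Sst and Pvalb interneurons, was lower, with sums of 10.7 and 413 CPM (log2 fold -5.14) and a read in 3 of 17 chandelier cells. Dlx6 stood at -1.35.

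Perineuronal net genes, which coat many Pvalb cells with matrix, had 0 of 9 higher and 4 lower, with a median of -0.88. Acan, the core protein aggrecan, had sums of 1.04 and 20.5 CPM (log2 fold -3.40). Without the cells over 1000 CPM of microglia genes 1 of the 9 was lower, and the median was -0.43. Neurofilaments gave 2 of 4 lower, with Nefh at -1.78, and vesicle release genes 2 of 15 higher, Stx1a (1.98) and Cplx2 (1.94), and 3 lower, among them Rims1 (-2.51) and Syt7 (-1.83). Of 11 calcium-binding proteins Hpca was higher (2.17) and 4 lower, led by Calb1 (-2.35) and Necab1 (-2.28). Of 5 synaptic organisers 2 were higher, C1ql1 (4.40) and Nptxr (2.11).

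Few genes of energy metabolism, of the immediate early response and of heat shock passed 2-fold in summed counts. Of 19 nuclear genes of oxidative phosphorylation 0 passed 2-fold, with a median of 0.03. The 8 mitochondrially encoded genes had a median of 0.52, with 1 past 2-fold, and under the mean over days a median of 0.91, with 3 higher. Of 11 immediate early genes 0 were higher and 1 lower, Arc (-2.50), and of 7 heat shock genes 1 was lower, Dnajb1 (-1.14).

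**Figure D3:**
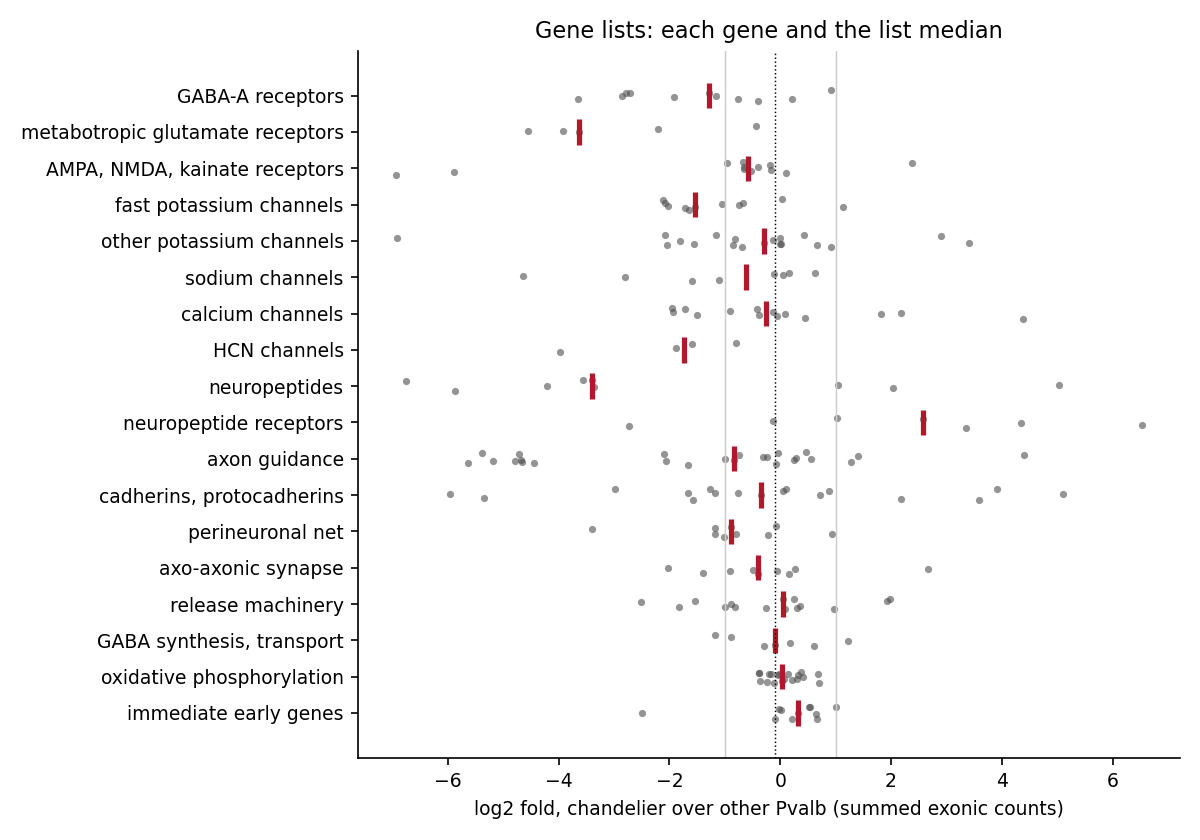
Log2 fold of summed counts for each gene considered in 18 lists (grey points), with the list median in red, the median of all genes dotted and grey lines at 2-fold. GABA-A receptors, metabotropic glutamate receptors, fast potassium channels, HCN channels and neuropeptides lay below -1 at the median, and neuropeptide receptors above 1.

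Markers of other cells were read next to these results. In chandelier cells the 7 microglia genes C1qa, C1qb, C1qc, Csf1r, Ctss, Cx3cr1 and P2ry12, which code for complement and for microglial receptors and a protease, were all 2-fold or more higher, with a median of 2.05. Their summed level ran from 0 through a median of 731 CPM to 14216 CPM in chandelier cells and from 0 through 221 CPM to 6787 CPM in the other Pvalb cells. Over group sums this was 3025 CPM against 673 CPM. No gene of the 7 was at 0 in either group. Over 1000 CPM stood 5 of 17 chandelier cells (29.4%, 10.3 to 56) and 22 of 117 others (18.8%, 12.2 to 27.1). The intervals overlapped, but they treat cells of the same recording day as independent. They are also wide with 17 chandelier cells, so they cannot show that the shares were alike.

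The excess in summed counts rested on few cells, although the chandelier median was higher as well, at 731 against 221 CPM. Chandelier cells numbered 15 and 5, with 14216 and 12989 CPM from different recording days, held 77.4% of the group's microglia reads, and no other Pvalb cell reached either value. Without both, the chandelier sum was 827 CPM. Among the other t-types Gpr149 had 5 of 16 cells over 1000 CPM and Il1rapl2 6 of 22, while Gabrg1 had 0 of 6. The 25 other typed cells of the same 7 recording days had a median of 146 CPM and a highest value of 3454 CPM, with 3 over 1000 CPM. The chandelier median was the higher one on 5 of these 7 days.

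**Figure D4:**
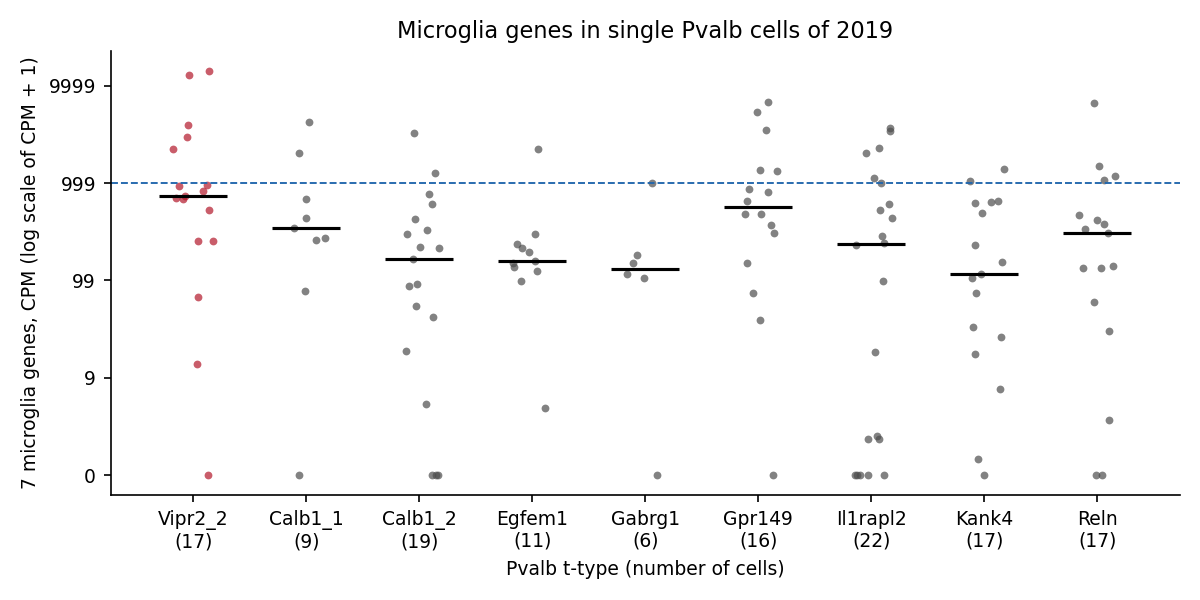
Summed level of the 7 microglia genes in every Pvalb cell of that year by t-type, as CPM on a log scale, with medians as bars and a dashed line at 1000 CPM. The highest 2 cells were chandelier cells, and cells over the line occurred in all t-types except Gabrg1.

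A wider list of 60 microglia genes gave the same direction. Of 54 considered, 50 were 2-fold or more higher in chandelier cells, with a median of 2.09 and sums of 13369 and 3570 CPM. Without the cells of either group over 1000 CPM, which left 12 and 95 cells, 12 of the 54 were higher and 8 lower, with a median of 0.39. Of the 7 genes, C1qc (2.18) and C1qb (1.55) then remained 2-fold higher, and Csf1r (-1.72), Cx3cr1 (-2.17) and P2ry12 (-1.03) were lower.

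How far the difference between chandelier and other Pvalb cells held was then measured in 4 ways. First, the 7 genes were removed from the table and totals recomputed. Of the 1547 higher genes 1540 (99.5%) stayed 2-fold higher, the 7 that did not being the genes removed, and of the 2341 lower genes 2332 (99.6%) stayed lower. Second, with the wider list removed, of which the data held 59 genes, 1497 (96.8%) and 2311 (98.7%) stayed. The higher genes that did not stay were the 50 higher genes of that list. No gene turned its sign in either case. Removing genes only rescales the totals of the others, so this outcome was nearly fixed in advance. It cannot show microglia RNA carried by genes outside the lists.

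In the next step the cells over 1000 CPM of microglia genes were left out. The number of genes 2-fold higher was 1485 and of genes lower 2543, close to the 1547 and 2341 with all cells. Yet of the original genes 990 (64%) stayed higher and 251 turned negative, while 1852 (79.1%) stayed lower and 1 turned positive. Last, without the 2 chandelier cells highest in microglia genes, 1064 (68.8%) stayed higher with 229 turned, and 2053 (87.7%) stayed lower with 0 turned. Calls were also lost when any 1 of the 3 recording days without a chandelier cell over 1000 CPM was left out, each with 1 chandelier cell, and 1326 to 1499 genes stayed higher and 2072 to 2213 lower. Without one of these days 0 to 84 of the higher genes turned negative, and 0 of the lower genes turned positive. In both settings without microglia-high cells a smaller share of the higher than of the lower genes stayed. The same held for the mean over cells (79.1% against 84%) and over days (80.3% against 88.6%). The reverse held with median-of-ratios scaling (100% against 87.3%) and without 1 of the 3 days (96.9% against 94.5%).

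Genes whose level followed microglia were looked at directly in the 117 other Pvalb cells, which share their libraries and depths with the microglia sum. A Spearman correlation of at least 0.3 with the 7-gene sum was found for 88 of 1534 genes higher in chandelier cells (5.74%), for 0 of 2341 lower genes, for 124 of 11937 genes in all (1.04%) and for 34 of the 54 microglia genes (63%). The 7 genes are part of that sum and among the higher genes, so their own correlations were partly built in. Of the 88 genes 28 (31.8%) stayed 2-fold higher without the cells over 1000 CPM, with a median of 0.78 in place of 1.76. Those cells were chosen by the same sum, so a loss among genes that follow it was partly built in too. Of the 1446 higher genes below 0.3, 955 (66%) stayed. The part of microglia RNA in the remaining losses was not tested.

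The markers kept their direction. Without the cells over 1000 CPM, Kit had a log2 fold of 7.39, Pthlh 5.46, Unc5b 4.59 and Vipr2 4.28, and Nkx2-1 stayed at 0 reads in the other cells. Cacna2d3 moved from 4.39 to 5.80 and Tac1 from -4.21 to -6.09. All 15 genes higher and all 15 lower, which were chosen for large folds, kept 2-fold in the same direction in each of the 4 ways. The first 2 of these ways only rescale the totals. In the other Pvalb cells the Spearman correlation of the 39 named and marker genes with the microglia sum ran from -0.15 for Gm43670 to 0.15 for Cacna2d3. GABA-A receptors still had 7 of 11 lower with a median of -1.29, fast potassium channels 6 of 11 lower with -1.26, metabotropic glutamate receptors 4 of 5 lower with -3.88, and neuropeptide receptors 5 of 7 higher with 3.17.

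**Figure D5:**
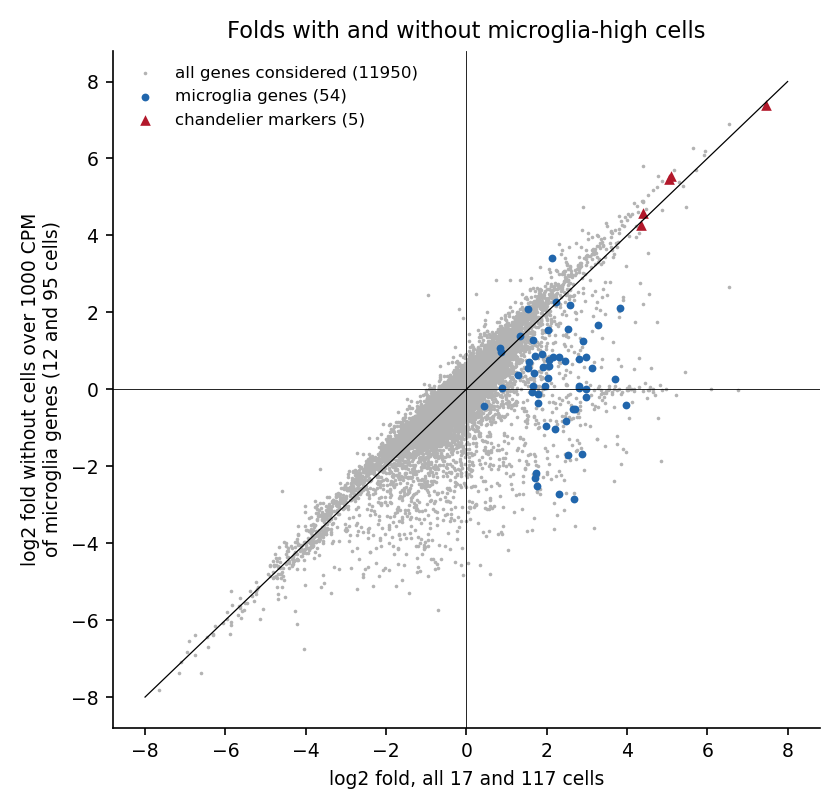
Log2 fold of each of 11950 genes with all cells (x axis) and without cells over 1000 CPM of microglia genes (y axis), with the 54 microglia genes in blue, the 5 chandelier markers in red and the line of equality. The markers lay near the line, most microglia genes lay below it, and further grey genes fell below the line.

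Other cell types left smaller traces. Oligodendrocyte genes were lower, at 4 of 4 considered, with Mbp at 137 and 545 CPM (log2 fold -1.98) and Cnp at -2.14. Of 6 astrocyte genes 2 were higher, S1pr1 (2.19), which blood vessels express as well, and Slc1a3 (1.04). Of the 2 genes considered from the list of oligodendrocyte precursors both were higher, C1ql1 (4.40), which is also a synaptic organiser, and Olig1 (1.01), while Olig2 had no read in any cell and Pdgfra stood at 0.0451 and 0.0127 CPM. No endothelial or mural gene reached the minimum of 5 CPM. The glutamatergic genes Camk2a (1.05) and Slc17a7 (0.95) were somewhat higher, and Slc17a6 and Neurod6 had no chandelier read.

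Markers of other interneuron families were mixed. Of 4 genes of the Sst family considered, Elfn1 (sums 99.9 and 3.39 CPM, log2 fold 4.52) and Grin3a were higher and Sst (-3.36) and Cort (-3.56) lower. No gene of the families from the caudal ganglionic eminence reached 5 CPM on average, with Vip at 5.68 and 0.297 CPM and Sncg without a read. How far RNA of neighbouring cells entered these values was not tested.

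The place of the chandelier cells among the Pvalb t-types was measured by correlation distance between mean profiles over the 1000 most variable genes. The nearest t-type to the chandelier cells was Reln, at 0.0994, the largest nearest distance of the 9 t-types. The others had a median of 0.0526, and the next was Calb1_1 at 0.0864, a t-type of 9 cells, whose mean is less precise. Of the 7 microglia genes 4 were among the variable genes, namely C1qb, Csf1r, Ctss and P2ry12. Without them the distance was 0.0982, without the 22 variable genes of the wider list 0.0989, and without the 2 microglia-rich chandelier cells 0.0972, each the largest of the 9.

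When the cells over 1000 CPM were left out, the distance was 0.104, and Calb1_1, with 7 cells left, came to 0.1033. With the wider gene list removed as well the values were 0.106 and 0.105, and the nearest t-type became Il1rapl2. The chandelier cells then stood apart from the median t-type, at 0.0636, but hardly from Calb1_1. Over 2000 variable genes Gabrg1, with 6 cells, was farther out than the chandelier cells, at 0.109 against 0.105.

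Intronic counts of the same cells, which weigh nuclear and unspliced RNA, gave a second reading. Kit had a log2 fold of 5.22 there, Unc5b 4.49, Pthlh 4.11 and Vipr2 3.00, and Nkx2-1 had an intronic sum of 5.62 CPM against 0 reads. Of the 15 named genes higher in chandelier cells 12 were 2-fold higher in introns as well and of the 15 lower genes 14 were lower. Patj stood at 0.83, Tmem255a went the other way, with intronic sums of 0.605 and 7.39 CPM, and Pcdh8 and Gm43670 had no intronic read in either group. Over all genes the introns carried the difference less closely, as 447 (28.9%) of the higher and 1161 (49.6%) of the lower genes passed 2-fold in the same direction, while 543 of the higher and 386 of the lower genes had the opposite sign. No minimum intronic level was set, so genes with few or no intronic reads count among those that did not pass.

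Only 2 recording days held both groups, with 2 chandelier and 6 other Pvalb cells. On these days all 15 named genes higher in chandelier cells were 2-fold higher, and 13 of the 15 lower genes were 2-fold lower, with Npy at -0.73 and Rbp4 at -0.62. The named genes were chosen for large folds in data that include the cells of these days, so this outcome was partly built in. Vipr2 stood at 5.13 and Kit at 5.67, Pthlh at 1.99 and Unc5b at 0.80. Pvalb was higher in the chandelier cells of these days, at 1.89. Over all genes 689 of the 1547 (44.5%) stayed higher and 433 turned negative, while 1390 of the 2341 (59.4%) stayed lower and 506 turned positive. The 7 microglia genes had a median log2 fold of -1.20 there. Their sum was 66.8 CPM in one chandelier cell, against a median of 321 CPM in the 2 other Pvalb cells of its day, and 253 CPM in the other, above the highest value of 229 CPM in the 4 other Pvalb cells of its day.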

How the data were processed

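Only cells recorded in 2019, the year with the most cells, were used, and their t-type was taken from the labels. The authors sequenced Smart-seq2 libraries with 75-bp single-end reads without strand information, aligned them to mm10 with STAR 2.5.4b, and deposited whole-number exonic and intronic counts per gene. Of 1329 columns in the exonic table, 9 matched no sample and were not used. No normalised values were used. Spike-in rows were left out (2.84% of exonic counts), the remaining counts of all cells in a group were added up and scaled to CPM of the group's total, and the log2 fold is that of CPM + 1, which understates changes of low genes. Genes with a mean of both groups of at least 5 CPM were considered. Cells are not replicates of a t-type, so no test was made. The intervals of shares take cells as independent draws and are descriptions only. Shares of cells used cells thinned to 200000 exonic counts, which left out 1 cell with fewer.

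Named genes were the 5 markers and Pvalb, the 15 genes per direction with the largest smallest fold among sums, mean over cells and mean over days (with 50 CPM or more in the higher group, and reads in 50% of its thinned cells), and 2 to 4 genes of each list with the largest folds. Some genes that these rules named are not reported here. Members and the 34 gene lists were chosen with earlier results of these data known. Variable genes followed the rule of the study's methods (1000 genes, from those that reach a count of 32 in 10 cells). Alternatives changed weighting, depth, filter, pseudocount, scaling, cells and genes. Leaving out the 2 chandelier cells highest in microglia genes was chosen after seeing the data. Gene positions came from GENCODE M21 on GRCm38. Steps were tested on simulated data. Scripts used matplotlib 3.10.9, pandas 2.3.3, scipy 1.17.1, numpy 2.4.6 and Python 3.11.15.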

Additional observations from a re-analysis of the deposited data

Results flagged for a closer look

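In the t-types of 4 to 10 cells, single cells stood far from the rest of their t-type. Such a gap arises by chance in about 1 of 20 groups of normally distributed values, and 8 combinations of t-type and measure were looked at. The microglia sums were skewed toward high values, so that rate need not hold for them. One Calb1_1 cell held 4705415 exonic counts. One Calb1_1 cell had 4208 CPM of the 7 microglia genes, and 1 Gabrg1 cell had 999.5 CPM, just under the limit of 1000 CPM used to leave cells out. These cells belong to the comparison group, and Calb1_1 was the t-type nearest to the chandelier cells in how far it stood from the rest.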

How the results depend on the processing

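No paired analysis was possible because the labels carry no number that pairs cells and no result comes from a test. Values within the 2 recording days that held both groups are given instead. The counts of 1547 genes higher and 2341 lower moved by more than 1.5 times in these settings: with a minimum of 20 CPM to 851 and 1229, with one of 1 CPM to 3779 lower, and on the 2 shared recording days, with 2 and 6 cells, to 3368 and 4028. Leaving out each chandelier recording day in turn gave 1570 to 1701 higher and 2288 to 2696 lower. Median-of-ratios scaling moved the median of all genes from -0.10 to 0.02 and gave 1857 higher and 2014 lower. The distance of 0.0994 moved beyond the spread of the other t-types (SD 0.0174) when the variable genes were chosen in Pvalb cells alone, to 0.138. The other t-types moved as well, their median from 0.0526 to 0.0811 and Calb1_1 from 0.0864 to 0.131. The ratio of the chandelier distance to that median fell from 1.89 to 1.70. Without single days the distance lay between 0.1003 and 0.105. The sign of Gad2 turned on the shared days, to 2.17, and that of Tmem255a in introns, to -2.39. The median of the 7 microglia genes turned on the shared days, to -1.20, that of the wider microglia list without the 2 chandelier cells highest in these genes, to -0.029, and that of the oligodendrocyte precursor list in introns, to -0.20. The cause was not tested. With 17 chandelier cells a gene read in few of them rests on 1 or 2 cells, and no spread between animals can be given.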
